A study of Mus musculus with 8 samples.

Results

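Pdgfb and Lad1 are 2 of the 27179 genes measured by RNA sequencing in splenic CD4+ T cells of mice. They were chosen by their fold change between unstimulated and stimulated cells of control offspring, where they had the second and the third largest increase, and their rows were found by gene symbol. The cells came from 8-week-old offspring of the strain C.Cg-Foxp3tm2Tch/J, which carries a fluorescent reporter in the Foxp3 gene, and this holds for every group. Control offspring had parents on unspiked water, and Cd offspring had parents given CdCl2 at 10 ppm in drinking water from shortly before mating until birth. The labels name CD4+ T cells, while the study's legend for its RNA sequencing of control offspring names CD4+CD25- conventional T cells. Such a sort would remove most regulatory T cells. The study's methods do not name the markers of the FACS sort, and which of these was sequenced is not settled here. Cells were isolated by negative selection and FACS sorting, then lysed at once (unstimulated, 0 hours) or cultured for 16 hours with anti-CD3/CD28 beads (stimulated). The beads engage the T cell receptor complex and the costimulatory receptor CD28. Each of the 4 groups had 2 libraries, numbered 6 and 7 in the labels. No cells were cultured without beads, so time in culture and stimulation cannot be told apart. The study treats each litter as a biological replicate, but the labels do not tie a library to a litter, so p-values measure only the spread between these libraries.

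Pdgfb encodes the B chain of platelet-derived growth factor, a secreted dimer that binds PDGF receptors on fibroblasts, pericytes and smooth muscle cells. It is best known from platelets, endothelial cells and macrophages, and its precursor is cleaved by furin-like convertases. Lad1 encodes ladinin-1, a protein of the anchoring filaments that tie stratified epithelium to its basement membrane. Neither gene is a standard marker of T cells.

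Pdgfb (gene ID 18591) lies on the minus strand at chr15:79995865-80024614 of mouse build GRCm38.p6, and its coding transcripts in GENCODE have 4 to 7 exons. Lad1 (gene ID 16763) lies on the plus strand at chr1:135818598-135833341, and its coding transcript has 10 exons. The reads of Pdgfb were counted over 2944 nucleotides and those of Lad1 over 2992, so the genes can be compared per length almost read for read. Levels are given in RPKM, a read count divided by transcript length and library size. The libraries held 15542732 to 25486791 reads on genes, and the correlation across genes between the libraries of a group was 0.983 to 0.990.

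In unstimulated cells of control offspring, Pdgfb had 0.113 and 0.0834 RPKM, from 6 and 4 reads. In stimulated cells of control offspring it had 32.2 and 34.0 RPKM, from 1474 and 1949 reads. Pdgfb thus went from near the detection limit in both libraries to a moderate level in both, and the groups did not overlap. Its mean was 0.0983 ± 0.0212 RPKM (SD, n = 2) without stimulation and 33.1 ± 1.29 RPKM (SD, n = 2) with it, a ratio of 337. The ratio of single libraries ran from 284 to 408. With 10 reads in all without stimulation, its counting interval at 95% ran from 182 to 700 and covers counting error only. The difference of log2(RPKM + 0.1), a scale on which the change of a low gene comes out too small, was 7.39. This contrast chose the genes, so these values are a description and no test is given. In it 11.5% of the 12605 genes tested rose past the thresholds (over 2-fold and under an adjusted p of 0.01 in limma) and 7.17% fell.

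Lad1 started about an order of magnitude higher and ended higher. It had 0.873 and 1.11 RPKM in unstimulated cells of control offspring, from 47 and 54 reads, and 151 and 145 RPKM in stimulated cells, from 7037 and 8462 reads. Its mean was 0.990 ± 0.165 RPKM (SD, n = 2) without stimulation and 148 ± 4.18 RPKM (SD, n = 2) with it, again with no overlap. The ratio was 150, with a counting interval of 124 to 185, and the log2 difference was 7.10. The fold of Lad1 therefore rests on more reads than that of Pdgfb.

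**Figure D1:**
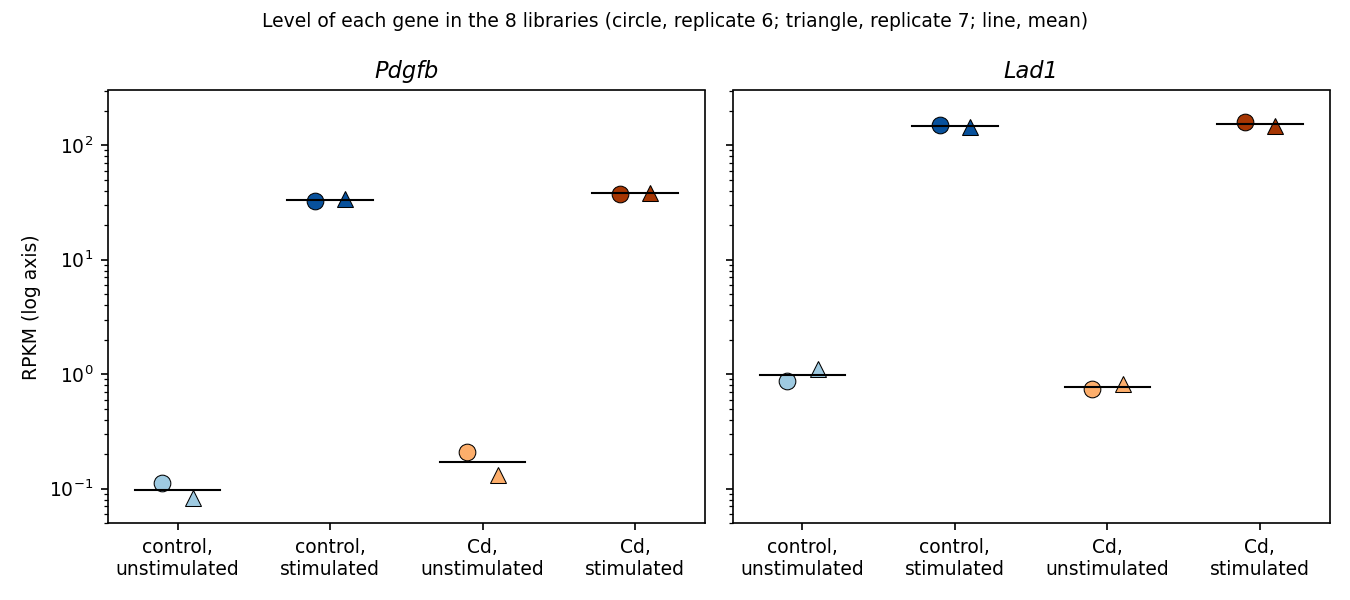
RPKM of Pdgfb and Lad1 on a log axis in the 4 groups, 1 point per library (circle, replicate 6; triangle, replicate 7) and a line at the group mean. Stimulated libraries sit at 32.2 to 38.2 RPKM for Pdgfb and 145 to 159 RPKM for Lad1, far above all unstimulated libraries.

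The fold change of Cd offspring was not used to choose the genes, and their response to stimulation was tested. Their libraries did enter the mean of at least 5 RPKM asked of the ranked genes, and the pooled spread. The test is thus not fully independent of the choice. Pdgfb had 0.210 and 0.132 RPKM in unstimulated cells, from 12 and 8 reads. It had 37.7 and 38.2 RPKM in stimulated cells, from 2439 and 2867 reads. No unstimulated library came within 2 orders of magnitude of a stimulated one. The means were 0.171 ± 0.0549 and 37.9 ± 0.376 RPKM (SD, n = 2 each), a ratio of 222 with a counting interval of 144 to 366. Pdgfb rose by 7.15 on the log2 scale (SE 0.16, 95% confidence interval 6.77 to 7.53, limma adjusted p = 2.13e-07). Pdgfb passed the filter on low values, a mean of at least 0.5 RPKM over the 8 libraries, only through the stimulated libraries, so it could hardly be tested without differing. With no filter it had the same difference and an adjusted p of 1.36e-06 in limma.

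Lad1 had 0.740 and 0.814 RPKM in unstimulated cells of Cd offspring, from 43 and 50 reads. It had 159 and 148 RPKM in stimulated cells, from 10483 and 11256 reads. Both stimulated libraries were again far above both unstimulated ones. The means were 0.777 ± 0.0520 and 153 ± 8.30 RPKM (SD, n = 2 each), a ratio of 198 with a counting interval of 161 to 244. Lad1 rose by 7.45 on the log2 scale (SE 0.11, 95% confidence interval 7.20 to 7.71, limma adjusted p = 6.28e-08). In this contrast 11.4% of the genes tested rose and 7.24% fell. Lad1 was above 0.5 RPKM in every unstimulated library too.

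Parental Cd was then compared within each state of the cells. These contrasts share control libraries with the one that chose the genes, so the choice can tilt them. In stimulated cells both Pdgfb libraries of Cd offspring were above both of control offspring. Nothing is read from that order, as 2 libraries against 2 cannot reach an exact two-sided p below 0.333. For Pdgfb the ratio of means was 1.15. The log2 difference was 0.20 (SE 0.16, 95% confidence interval -0.19 to 0.58) and did not pass the test (limma adjusted p = 1). For Lad1 the groups overlapped, with a ratio of means of 1.03 and a log2 difference of 0.05 (SE 0.11, 95% confidence interval -0.21 to 0.30, limma adjusted p = 1). Among all genes tested 0% passed this comparison, with 414 at an unadjusted p under 0.05 in limma, and 2 to 9 genes passed under 5 of the alternatives. The limma intervals leave room for a change of up to 0.58 in Pdgfb and 0.30 in Lad1 on the log2 scale. The counting intervals of the ratios, which cover counting error only, were 1.09 to 1.19 for Pdgfb and 1.01 to 1.06 for Lad1.

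In unstimulated cells the genes differed in direction. Pdgfb was 1.74 times higher in Cd offspring, but this rests on 20 reads against 10. The counting interval of the ratio ran from 0.767 to 4.11. The log2 difference was 0.44 (SE 0.16, 95% confidence interval 0.06 to 0.82, limma adjusted p = 0.311). Lad1 was at 0.784 of its control level, from 93 reads against 101 at different depths, with a counting interval of 0.59 to 1.06. Its log2 difference was -0.31 (SE 0.11, 95% confidence interval -0.56 to -0.05, limma adjusted p = 0.293). Both intervals lie on one side of 0 before correction, and neither difference passed after adjustment over all genes tested, of which 0.896% did. The values of unstimulated control cells helped to choose the genes, so nothing is read from the side of 0.

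The difference in response between Cd and control offspring subtracts the contrast that chose the genes, so it is given as a description with no test. It was -0.24 for Pdgfb (SE 0.23, 95% confidence interval -0.78 to 0.30) and 0.36 for Lad1 (SE 0.15, 95% confidence interval -0.00 to 0.71). Of all genes tested 0.357% were called in this contrast, from which nothing is read about Pdgfb and Lad1. The sign for Pdgfb depended on the scale: with a pseudocount of 0.5 RPKM it was 0.03, and with 1 RPKM it was 0.10.

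**Figure D2:**
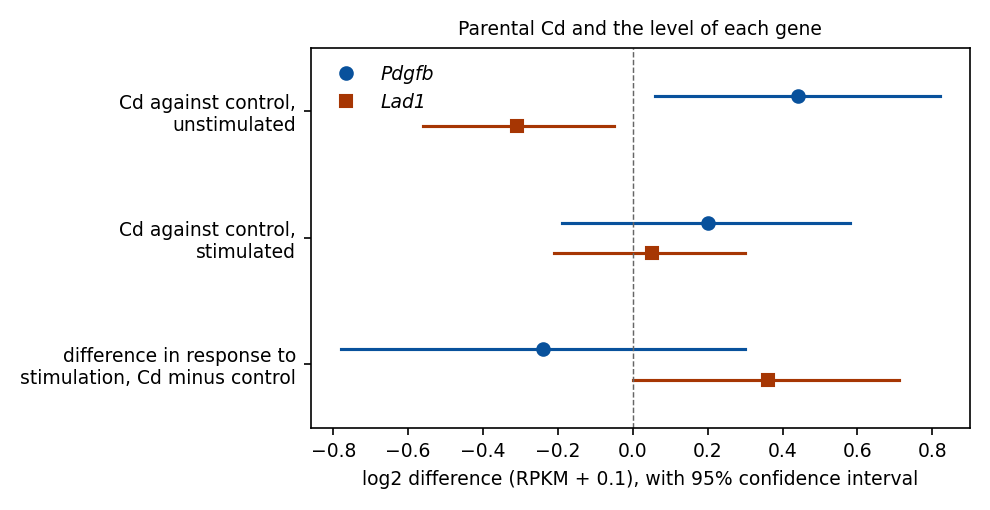
Log2 differences of Pdgfb (circles) and Lad1 (squares) on the log2(RPKM + 0.1) scale for the 3 comparisons that involve parental Cd, with 95% confidence intervals as lines and a dashed line at 0. In unstimulated cells the points lie at 0.44 and -0.31 on opposite sides of 0, and neither difference passed after adjustment. The genes were chosen on control libraries, so nothing is read from where an interval lies.

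By level, the order of the groups for Pdgfb was control unstimulated, Cd unstimulated, control stimulated and Cd stimulated. For Lad1 it was Cd unstimulated, control unstimulated, control stimulated and Cd stimulated. Within a state of the cells the groups next to each other in these orders did not pass the test. Among genes above 0 in the mean of a group, Pdgfb was above 14.9% in unstimulated and 84.7% in stimulated cells of control offspring, and above 19.3% and 87.2% in Cd offspring. Lad1 moved from above 33.6% to above 97.9% in control offspring and from above 31.6% to above 98.0% in Cd offspring. Lad1 was thus the rank 348 gene by level in stimulated cells of Cd offspring, and Pdgfb the rank 2245 gene.

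The level of Lad1 over that of Pdgfb, per length, was 4.70 and 4.27 in the stimulated libraries of control offspring and 4.23 and 3.86 in those of Cd offspring. The same ratio in unstimulated cells came to 7.71 and 13.3 for control offspring, against 3.53 and 6.15 for Cd offspring. It varied little between stimulated libraries and widely between unstimulated ones, where Pdgfb had 4 to 12 reads a library. No gene in the table other than Pdgfb itself was at or below 0.210 RPKM in every unstimulated library and at or above 32.2 RPKM in every stimulated one. The same held for Lad1 at its limits of 1.11 and 145 RPKM. These limits are the genes' own, so this is a description.

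Which of the genes had the larger fold depended on the offspring and on the scale. Among genes with a mean of at least 5 RPKM, Irf4, a transcription factor of activated lymphocytes, came before both, with 7.63 for control offspring and 7.58 for Cd offspring. Just outside came the row of the microRNA precursor gene Mir155 at 6.33 in control offspring, against 7.10 for Lad1 just inside. In Cd offspring Lad1 ranked 2 and Pdgfb 3 among all genes tested, and Il2, the T cell growth factor interleukin 2, came next at 6.87. With a pseudocount of 1 RPKM the difference of Pdgfb was 4.96 in control offspring, rank 6, and 5.06 in Cd offspring, rank 4, while Lad1 had rank 2 in both, at 6.23 and 6.44. With voom on recovered reads, which weights reads by their precision, Pdgfb had 8.27 and 7.76, ranks 2 and 1, and Lad1 7.23 and 7.61, ranks 4 and 3.

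**Figure D3:**
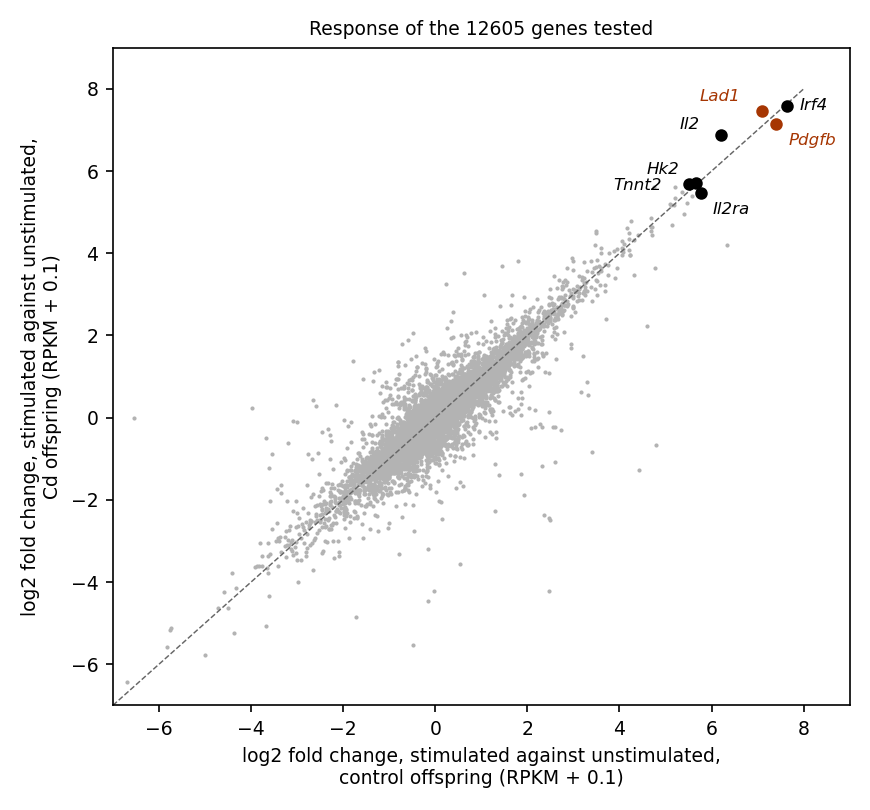
Log2 fold change of stimulated against unstimulated cells on the log2(RPKM + 0.1) scale, control offspring on the x axis and Cd offspring on the y axis, for the 12605 genes tested, with equality as a dashed line. Pdgfb lies at 7.39 and 7.15 and Lad1 at 7.10 and 7.45, beside Irf4 at 7.63 and 7.58 in the upper corner.

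Profiles over the 8 libraries were compared by Euclidean distance after each gene was centred on its own mean of log2(RPKM + 0.1). The gene nearest to Pdgfb was Lad1, at a distance of 0.94, before Irf4 at 0.96 and Il2 at 1.75. Il2ra, the alpha chain of the interleukin 2 receptor, followed at 2.41 and Hk2, a hexokinase of glycolysis, at 2.48. The gene nearest to Lad1 was Irf4, at 0.60, before Pdgfb at 0.94, Il2 at 1.31, Hk2 at 2.27 and Tnnt2, cardiac troponin T, at 2.43. Such distances are set mainly by the size of the response, since the 8 libraries fall into 2 states. In Cd offspring Irf4 rose from 2.54 to 504 RPKM, Il2 from 0.290 to 45.5, Il2ra from 2.09 to 97.4 and Hk2 from 0.194 to 15.2 (group means), and each rose in control offspring too.

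The promoter of Lad1 is shown because the gene's response was one of the largest measured. These are the 250 bases before the start of Lad1 in RefSeq, build GRCm38.p6, plus strand, chr1:135818348-135818597, written 5′ to 3′, with capitals at the only match to 8 motifs searched on both strands.
Lad1: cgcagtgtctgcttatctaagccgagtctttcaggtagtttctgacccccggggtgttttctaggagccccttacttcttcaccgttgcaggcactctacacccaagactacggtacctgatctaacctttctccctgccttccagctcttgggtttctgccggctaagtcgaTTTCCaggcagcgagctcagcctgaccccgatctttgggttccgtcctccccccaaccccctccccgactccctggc
The capitals are the NFAT core GGAAA on the opposite strand, 77 to 73 bases before the start. Of 27025 genes with a promoter of this length, 55.6% hold that core on either strand, so it does not set Lad1 apart. The letters of AP-1 (TGANTCA, in 6.87% of promoters), the GC box (GGGCGG, 32.9%), the TATA box (TATAAA, 13%), the E-box (CACGTG, 6.05%), EGR (GCGNGGGCG, 4.65%), NF-kB (GGNNTTTCC, 4.84%) and IRF (GAAANNGAA, 7.16%) did not occur in this window. The NFAT core can overlap the NF-kB and IRF motifs. The window of Lad1 had 57.6% G and C, against a median of 52% over all promoters, and 11 CpG against a median of 6.

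The rest of the PDGF system was at low levels. Of the 4 ligand genes only Pdgfb passed the filter. Pdgfa and Pdgfc had group means of at most 0.0193 and 0.00559 RPKM, and Pdgfd was at 0 in every library. Of 5 receptor and co-receptor genes, Pdgfra, which encodes PDGF receptor alpha, was at 0 in every library and Pdgfrb, which encodes PDGF receptor beta, was at most at a group mean of 0.0190 RPKM. Pdgfrl, a receptor-like gene, had at most 0.0333 RPKM. Lrp1, a co-receptor, went from 0.0445 to 0.161 RPKM in control and from 0.0422 to 0.197 RPKM in Cd offspring, below the filter. The one tested, the co-receptor Nrp1, went from 3.01 to 4.86 RPKM in control offspring and from 2.87 to 4.92 RPKM in Cd offspring and did not pass (limma adjusted p = 0.0841 and 0.0379, threshold 0.01). The genes of the main receptors were thus at or near 0 in cells where the ligand gene rose.

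Of 6 genes for proteases that process PDGF chains, 2 were tested. Furin, the convertase for many precursor proteins, rose from 16.2 to 62.7 RPKM in control and from 14.7 to 62.5 RPKM in Cd offspring, by 1.94 and 2.09 on the log2 scale (SE 0.08, limma adjusted p = 1.34e-06 and 1.13e-06). Pcsk7, another convertase, had log2 differences of -0.74 and -0.89, below the 2-fold limit. Pcsk5 and Pcsk6, further convertases, had at most 0.00598 RPKM in a group mean. Plat, tissue plasminogen activator, had 0.841 and 0.810 RPKM in unstimulated and 0.0660 and 0.0873 RPKM in stimulated cells of control and Cd offspring, below the filter, and Plau, urokinase, at most 0.0487 RPKM.

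Of 5 VEGF ligand genes 2 were tested, and Vegfb rose by 1.27 in control and 1.57 in Cd offspring on the log2 scale (SE 0.14, limma adjusted p = 0.000116 and 3.96e-05), to 7.22 and 8.19 RPKM. Vegfa, at 0.51 and 0.57 on that scale, did not pass. None of the 4 VEGF receptor genes passed the filter. Of 12 other secreted growth factor genes 2 were tested: Tgfb1, at 107 and 109 RPKM in stimulated cells, did not pass 2-fold with 0.60 and 0.63, and Fgf2 passed in control offspring only (2.02, to 1.25 RPKM), a call lost under 13 of 18 alternatives. Of the 4 genes tested in these lists, 2 rose in control and 1 in Cd offspring, where 11.5% and 11.4% of all genes tested did. Fgf2 passed the filter on low values only through the stimulated libraries, so the filter in part fixes this count and nothing is read from it. With no filter Fgf2 lost its call. The difference of the Fgf2 response between Cd and control offspring did not pass (log2 difference -0.89).

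**Figure D4:**
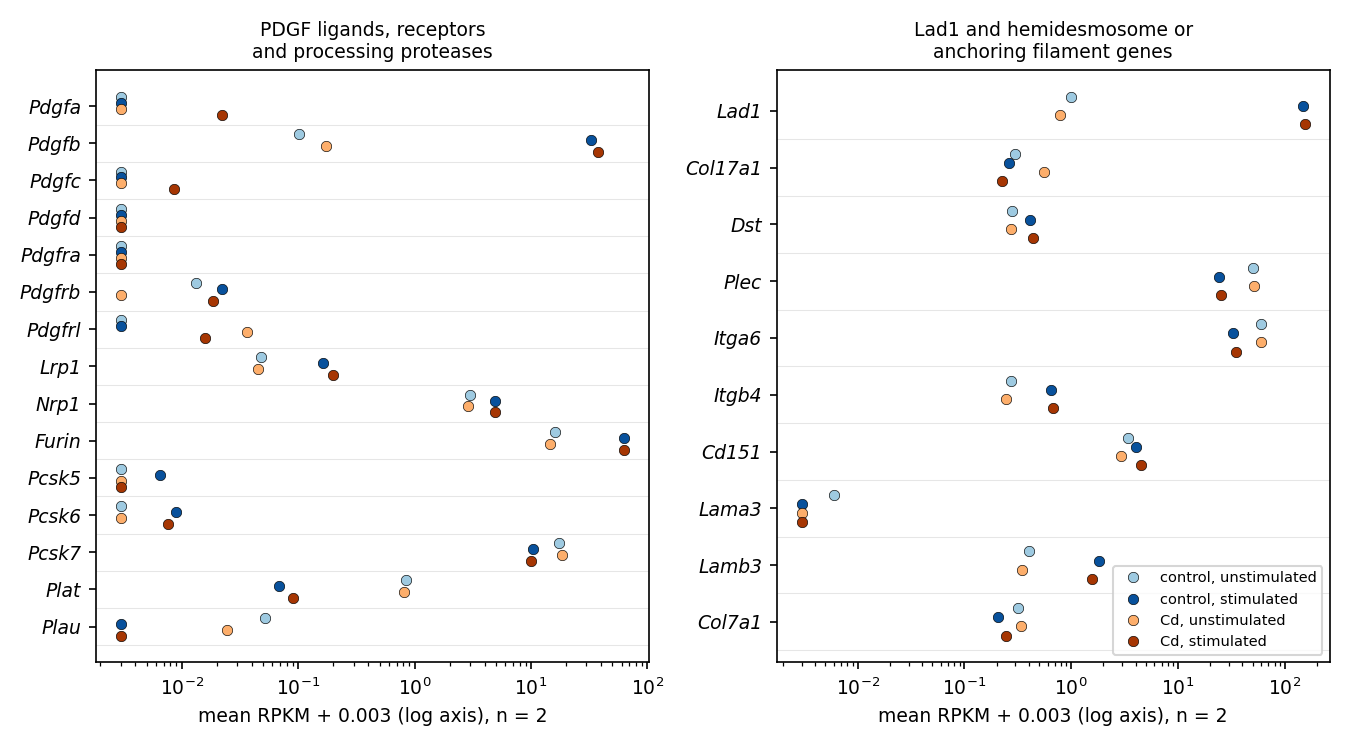
Mean RPKM plus 0.003 on a log axis in the 4 groups (n = 2 each, colours) for the PDGF ligand, receptor and protease genes at left and for Lad1 and 9 hemidesmosome and anchoring filament genes at right. Pdgfb and Furin, at left, and Lad1 and Lamb3, at right, have stimulated means well above unstimulated ones, while Pdgfra and Pdgfd are at 0. Lrp1, at left, and Itgb4, at right, also have higher stimulated means, at levels below the filter.

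Of 10 hemidesmosome and anchoring filament genes, whose proteins are found with ladinin-1 in skin, 4 were tested. In control offspring 1 rose and 1 fell, and in Cd offspring 1 rose and 0 fell, where 11.5% and 11.4% of all genes tested rose and 7.17% and 7.24% fell. Lamb3, the beta chain of the anchoring filament laminin, rose from 0.40 to 1.81 RPKM in control and from 0.340 to 1.55 RPKM in Cd offspring, by 1.94 and 1.91 on the log2 scale (SE 0.22, limma adjusted p = 0.000139 and 0.000155), and in Cd offspring it lost its call with a pseudocount of 1 RPKM (0.93). Lamb3 passed the filter on low values only through the stimulated libraries, so the filter in part fixes the count of genes that rose. Nothing is read from that count. With no filter Lamb3 still rose in both kinds of offspring. Lama3, the alpha chain of the anchoring filament laminin, had at most 0.00297 RPKM. Plec, a linker of the cytoskeleton, fell by 1.04 in control offspring (SE 0.08, limma adjusted p = 1.9e-05), a call lost without replicate 6 of the stimulated control libraries (-0.93), and had a difference within the 2-fold limit in Cd offspring, from 50.9 to 25.5 RPKM. Itga6 and Cd151 did not pass, at -0.86 and 0.26 for control offspring and -0.80 and 0.61 for Cd offspring. Itgb4, the integrin chain specific to hemidesmosomes, had 0.649 and 0.667 RPKM in stimulated cells, below the filter on the mean, as were Dst, Col7a1 and Col17a1, at most 0.547 RPKM. The median over the 4 genes tested was -0.30 in control and -0.09 in Cd offspring, against 0.07 and 0.05 over all genes tested. Of 13 laminin and collagen IV basement membrane genes only Agrn was tested, at 0.54 and 0.64, and did not pass.

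Within 100 kb of Lad1, RefSeq lists 5 genes, of which 4 were tested, and all 4 rose in control and in Cd offspring, where 11.5% and 11.4% of all genes tested did. Tnnt2 and Tnni1 passed the filter on low values only through the stimulated libraries, and Pkp1, at or near 0 throughout, did not pass it, so the filter in part fixes this count and nothing is read from it. With no filter both still rose in both kinds of offspring. Tnnt2, on the same strand, starts 2974 bases beyond the end of Lad1. It had 0.0931 and 0.103 RPKM in unstimulated and 8.94 and 8.74 RPKM in stimulated cells of control offspring, and 0.0863 and 0.0408 against 9.48 and 7.13 RPKM in Cd offspring. The groups did not overlap, and Tnnt2 rose by 5.50 in control (SE 0.22, limma adjusted p = 9.63e-07) and 5.68 in Cd offspring (SE 0.22, limma adjusted p = 1.03e-06). It had 1 to 2 reads in each unstimulated library and 166 to 249 in each stimulated one. The table holds 1 value per gene, so it does not show where in Tnnt2 the reads lay.

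On the other side of Lad1, at 7609 bases, Tnni1, slow skeletal troponin I, rose by 3.69 in control and 3.09 in Cd offspring, to 2.17 and 1.73 RPKM. Phlda3, a gene induced by p53, rose by 4.25 and 4.78, to 14.0 and 14.5 RPKM. Csrp1, a LIM domain protein, rose by 1.07 and 1.17, and in control offspring it fell below the 2-fold limit under median-of-ratios scaling and quantile normalization (its lowest value was 0.94). These 3 lie on the strand of Lad1. Pkp1, plakophilin 1 of desmosomes, on the opposite strand, had at most 0.00875 RPKM in a group mean. None of these genes passed a comparison between Cd and control offspring.

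Within 100 kb of Pdgfb, 13 genes are annotated and 6 were tested, of which 1 rose in each kind of offspring, a share near that over all genes tested (11.5% and 11.4%). That gene too passed the filter only through the stimulated libraries. Syngr1, a synaptic vesicle protein, rose by 2.45 in control and 2.46 in Cd offspring, to 0.984 and 0.883 RPKM, and lost its call with a pseudocount of 1 RPKM. Cbx7, a Polycomb protein and the nearest gene tested, at 24722 bases, had differences of -0.04 and 0.21, and Apobec3, which overlaps it on the opposite strand, had 0.40 and 0.47. Rpl3, a ribosomal protein, was at 190 and 197 RPKM in unstimulated cells of control offspring and at 125 and 124 RPKM in those of Cd offspring. In stimulated cells it was at 187 to 200 RPKM in all 4 libraries. Rpl3 was lower in unstimulated cells of Cd offspring by a log2 difference of -0.64 (SE 0.04, limma adjusted p = 0.00305), and its response differed between Cd and control offspring by 0.71 (SE 0.06, limma adjusted p = 0.0102), a call lost with the replicate block by exposure and number (adjusted p = 0.0505 in limma). Reads of a ribosomal protein gene can be shared with its pseudogenes, so its level is less certain. The snoRNA genes Snord83b and Snord43, which lie within Rpl3, did not pass.

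**Figure D5:**
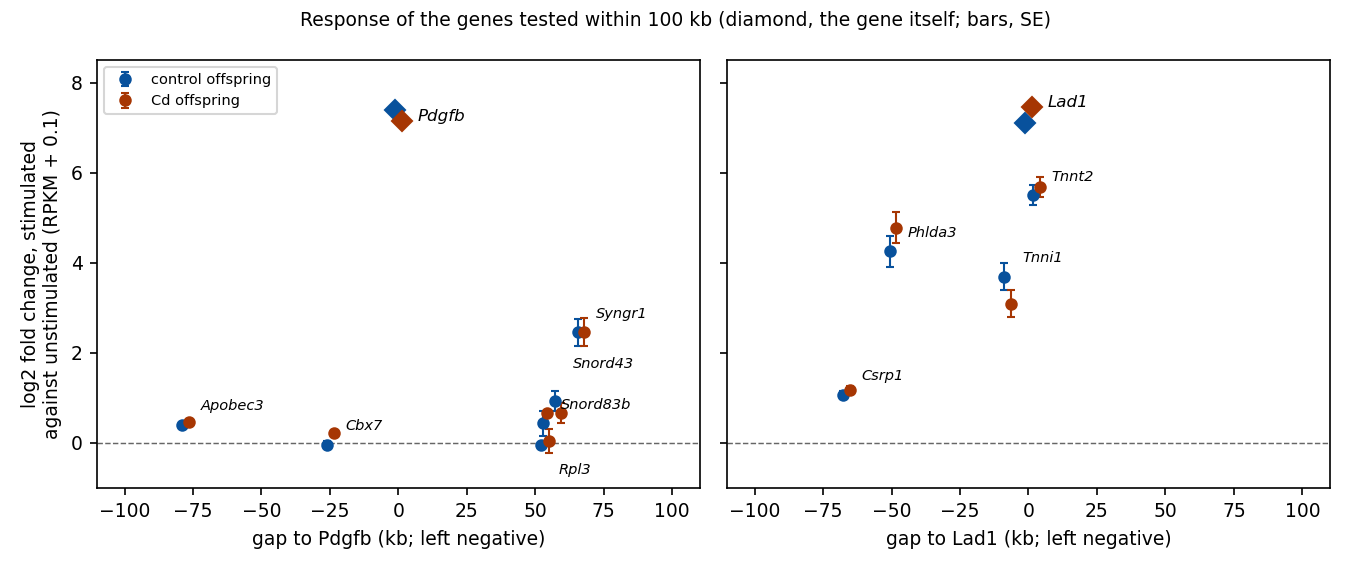
Log2 fold change of stimulated against unstimulated cells (log2(RPKM + 0.1) scale; bars, SE) for the genes tested within 100 kb of Pdgfb (left) and Lad1 (right), by the gap to that gene in kb, with the gene itself as a diamond and control (blue) and Cd offspring (red) drawn slightly apart. All 4 genes beside Lad1 lie above 1 in both kinds of offspring, from Csrp1 at 1.07 to Tnnt2 at 5.68, and beside Pdgfb only Syngr1 does.

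Marker genes were read to describe the cells in which the genes were measured. In the bulk samples, fewer cells of a type and less RNA per cell cannot be told apart. The 6 T cell markers were all tested, with Cd3e at 463 and 312 RPKM and Cd4 at 312 and 216 RPKM in unstimulated and stimulated cells of control offspring. Without stimulation their summed level was 2160 to 2190 RPKM in control and 2040 to 2090 RPKM in Cd offspring. With stimulation it was 1330 to 1350 RPKM in control and about 1370 RPKM in Cd offspring. The 7 activation markers all rose in control and Cd offspring, where 11.5% and 11.4% of all genes tested did. They include Irf4, Il2 and Il2ra, which stand near the top of the same ranking as Pdgfb and Lad1, so nothing is read from this count. Without stimulation their summed level was 189 to 210 RPKM in control and 159 to 173 RPKM in Cd offspring. With stimulation it was about 1610 RPKM in control and 1500 to 1560 RPKM in Cd offspring. Of the 3 markers of regulatory T cells, Ctla4 rose by 2.35 and 2.39, while Foxp3 and Ikzf2 did not pass. Il2ra encodes CD25, the protein named in the legend's sort. The part of these shifts in the levels of Pdgfb and Lad1 was not tested.

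The levels of markers of other cell types follow, and their part in the results was not tested. Of 6 platelet and megakaryocyte markers, 4 (Pf4, Ppbp, Gp1bb and Treml1) were at 0 in every library, and the summed level was at most 2.73 RPKM in unstimulated and 1.1 to 1.5 RPKM in stimulated libraries. The endothelial list summed to 84.9 to 88.4 RPKM in unstimulated and 36.5 to 40.2 RPKM in stimulated libraries, nearly all of it Pecam1, which T cells also express, with Cldn5 at 0 in every library and Cdh5 at most at a group mean of 0.151 RPKM. The 5 epithelial markers summed to 0.620 to 0.994 RPKM in unstimulated and 0.371 to 0.681 RPKM in stimulated libraries, with Krt8 and Krt19 at 0 in every library. The myeloid list summed, without stimulation, to 6.23 to 6.62 RPKM in control and 7.58 to 7.83 RPKM in Cd offspring. With stimulation it summed to 3.21 to 3.5 and 3.26 to 4.31 RPKM, and Itgam fell by 2.27 and 2.03. The fibroblast and mural list summed, without stimulation, to 1.76 to 1.86 RPKM in control and 3.19 to 3.98 RPKM in Cd offspring. With stimulation it summed to 1.09 to 1.33 and 0.904 to 1.43 RPKM, with Col3a1 and Rgs5 at 0 in every library. Only 1 of its 5 genes was tested. That gene fell past the thresholds in Cd offspring only, and no comparison between Cd and control offspring called it.

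Of the remaining lists, the B cell markers had 3.12 to 3.76 RPKM summed in unstimulated libraries. With stimulation they had 4.19 to 4.33 RPKM in control and about 4.89 RPKM in Cd offspring. Ms4a1 was at 0 in every library, and Cd79a, which did not pass, was at 4.16 and 4.71 RPKM in stimulated cells. The erythroid markers summed to at most 0.0960 RPKM. The CD8 and NK cell list summed to 12.9 to 15.1 RPKM in unstimulated and 10.5 to 12.1 RPKM in stimulated libraries, most of it Cd8b1. Cd8b1 went from 9.98 to 11.0 RPKM in control and from 9.89 to 10.9 RPKM in Cd offspring, so the lower sum was not its own. Cd8a was at most at a group mean of 0.139 RPKM. Whether all T cells or a part of them carried the transcripts was not tested, since each library is a pool.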

How the data were processed

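Alignment by the authors used Subread and mm10, and counting used featureCounts and RefSeq transcripts. Versions and the handling of strand and multiple alignments are not given in the sources used here. The deposited table holds log2(RPKM + 1) + 0.0001 per gene and library, by the authors. The scale was read from the values, and RPKM was obtained by reversing it. The test planned for RPKM was therefore run on back-transformed values. Low values step in single reads, from which read numbers per gene and library were worked out. Values log2(RPKM + 0.1) of the 12605 genes with a mean of at least 0.5 RPKM went into a limma fit (version 3.58.1, R 4.3.3) of 4 group means with a trended prior over all 8 libraries and Benjamini-Hochberg adjustment, and the steps were tested on simulated data. Calls for stimulation needed an adjusted p below 0.01 together with a change over 2-fold, and those for parental Cd an adjusted p below 0.05. The study's edgeR test and its limit on log2 CPM were not used. The planned test of the difference in response is not given for the members, since it subtracts the contrast that chose them. Names and coordinates came from RefSeq GRCm38.p6 (25275 gene IDs matched) and strands from GENCODE vM21. Of the members 1 had a promoter sequence in the table used here.

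The members, gene lists and tests were chosen with earlier results of these data known. The genes named were the members, the genes next to them in the control ranking, the 5 nearest profiles, tested genes within 100 kb, all genes of the PDGF, protease and hemidesmosome lists and up to 3 of each other list, plus marker genes at 0 that were named after their values were seen. Alternatives were pseudocounts of 0.5 and 1 RPKM, no filter or a mean of at least 1 RPKM, a fit to the compared libraries alone, median-of-ratios and quantile scaling, replicate blocks, no trend, voom, and each library left out. Same-numbered libraries deviated with correlations of -0.11 to 0.06, and the numbers were not taken as pairs in the main fit. With 2 libraries in a group, this does not settle whether libraries of the same number share an animal. In its qPCR tests the study paired stimulated with unstimulated samples. Values of some single genes of these lists are not reported here.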

Additional observations from a re-analysis of the deposited data

Results flagged for a closer look

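Rpl3, a neighbour of Pdgfb, was the gene named here whose response to stimulation depended on parental exposure by the interaction term in limma. The difference was 0.71 on the log2 scale (SE 0.06, adjusted p = 0.0102). Its level was 194 ± 5.05 RPKM in unstimulated and 187 ± 0.390 RPKM in stimulated cells of control offspring, and 124 ± 0.378 and 197 ± 4.82 RPKM in Cd offspring (SD, n = 2 each). The call was lost with the replicate block by exposure and number (adjusted p = 0.0505), without the trended prior (0.0712), without control stimulated replicate 6 (0.0644) and without Cd stimulated replicate 7 (0.0695), all in limma. Groups of 2 libraries were too small to look for outlying libraries.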

How the results depend on the processing

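The rise of Pdgfb and Lad1 in Cd offspring passed under every alternative run. Leaving out 1 library, where the lone library is assumed to vary like the other groups, gave 6.94 to 7.36 for Pdgfb and 7.39 to 7.51 for Lad1, and 7.28 to 7.50 and 6.94 to 7.25 for their differences in control offspring. With the replicate block the values stayed at 7.15 and 7.45, and neither block changed another call of the 2 genes. The difference in control offspring moved for Pdgfb to 5.81 with a pseudocount of 0.5 RPKM, 4.96 with 1 RPKM, 7.05 after quantile normalization and 8.27 with voom, and for Lad1 to 6.65 and 6.23 with those pseudocounts. The fold of a gene with 10 reads depends on the constant added to it.

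The Cd comparisons of the 2 genes within a state of the cells never passed. The difference in response of Pdgfb turned to 0.03 and 0.10 with pseudocounts of 0.5 and 1 RPKM and to 0.01 after quantile normalization, and Lad1 in stimulated cells turned to -0.01 without replicate 6 of that Cd group. Without 1 library, the Pdgfb differences were 0.16 to 0.24 (stimulated), 0.23 to 0.65 (unstimulated) and -0.45 to -0.04 (response). Those of Lad1 were -0.01 to 0.10, -0.46 to -0.15 and 0.20 to 0.51.

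Counts over all genes moved more. The 113 genes called in unstimulated cells became 65 without the filter, 52 with the libraries of the comparison alone, 14 without the trend and 211 with voom. The 45 called for the difference in response became 28, 25 (block by exposure and number), 4 (no trend) and 111 (voom), and the 0 in stimulated cells became 9 without the filter and 2 without the trend. Leaving out 1 library gave 19 to 105 genes in unstimulated cells, lowest without control unstimulated replicate 6 and also more than 1.5 times lower without replicate 7 of that group (67) or either Cd stimulated library (61 each). It gave 2 to 63 for the difference in response, moved most without Cd stimulated replicate 7 (2) and control stimulated replicate 6 (3), then control unstimulated replicate 6 (27) and control stimulated replicate 7 (28). In stimulated cells it gave 0 to 3 genes, 2 without either control unstimulated library and 3 without control stimulated replicate 7. The cause was not tested. The response call of Rpl3 was lost under 4 of 18 alternatives, the replicate block by exposure and number among them. These alternatives were added for genes other than the members after the data were seen. Comparisons over 2 libraries alone cannot reach an exact two-sided p below 0.333.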
